A study of Mus musculus with 38 samples.

Results

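The lymphocyte genes of brown adipose tissue followed here were 34 genes that mark T cells, B cells and cytotoxic lymphocytes, out of 29411 gene names on the arrays. They were taken by name, as every gene of a list that the arrays carried. The rule itself used no measured value, although the list was drawn up with earlier results of these data known. Of the 34, 19 belonged to T cells (Cd3e, Cd3d, Cd3g, Cd247, Cd2, Cd4, Cd8a, Cd8b1, Lck, Zap70, Lat, Cd5, Cd6, Cd27, Cd28, Thy1, Il7r, Tcf7 and Lef1), 10 to B cells (Ms4a1, Cd79a, Cd79b, Cd22, Blk, Cr2, Fcer2a, Pax5, Igj and Igh-6), 4 to cytotoxic cells (Prf1, Gzma, Gzmb and Nkg7), and Ltb to T and B cells both. Igj and Igh-6 are the array's older names for Jchain and Ighm.

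The study followed C57BL/6J mice on 5 feeding regimens after weaning at 3 to 4 weeks of age and measured RNA of whole brown adipose tissue on 38 one-colour Agilent arrays. LFC mice ate a normal diet with 10% of calories from fat, and HFC mice a high fat diet rich in sucrose with 60% of calories from fat. HF5, HF20 and HF75 mice ate the HFC diet together with 5, 20 or 75 µg of Kal-1, a botanical formulation given in water. LFC and HFC had 10 arrays each, at Days 6, 10 and 14, at Week 0 and then every 3 weeks from Week 3 to Week 18, and each Kal-1 group had 6 arrays, from Week 3 to Week 18. A group held 30 animals, of which 5 were killed at each interval. There was 1 array for each group and time point, and the sources used here do not say whether an array held 1 animal or a pool, so time points served as the replicates. In the group comparisons time point was a block, and a p-value measures how group differences varied between time points. In the slopes over days it measures the spread of arrays about the fitted lines.

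Lymphocytes are a small share of the cells of brown fat, which is built mainly of adipocytes that burn lipid for heat, with vessels, nerves and resident macrophages between them. T cells read antigen through a receptor whose signal is passed on by the CD3 and zeta chains, the kinases Lck and Zap70 and the adaptor Lat, while B cells use a membrane antibody with the Cd79a and Cd79b chains and, once turned into plasma cells, secrete antibody. Cytotoxic T cells and natural killer cells store perforin and granzymes in granules, and small lymph nodes lie close to fat depots and can be taken along in a dissection. In a whole-tissue sample fewer cells of a type and less RNA per cell cannot be told apart.

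Igj, which went with Igh-6 (r = 0.76) and had the lowest median correlation with the other members (0.17), and the 3 CD3 chains, which lie in 1 cluster on chromosome 9 and followed each other unequally, serve as examples of sequence. The 250 bases upstream of their starts are shown here, 5′ to 3′ on the strand of the gene, from RefSeq on build GRCm38.p6. Jchain (Igj) is at chr5:88527898-88528147 on the minus strand, Cd3d at chr9:44981536-44981785 on the plus strand, Cd3g at chr9:44980432-44980681 on the minus strand and Cd3e at chr9:45009612-45009861 on the minus strand. Capitals mark matches, on either strand, to 4 short motifs of factors known from lymphocytes: the octamer ATGCAAAT, an ETS motif AGGAAG, a RUNX motif TGTGGT and an E-box CAGGTG.
Jchain: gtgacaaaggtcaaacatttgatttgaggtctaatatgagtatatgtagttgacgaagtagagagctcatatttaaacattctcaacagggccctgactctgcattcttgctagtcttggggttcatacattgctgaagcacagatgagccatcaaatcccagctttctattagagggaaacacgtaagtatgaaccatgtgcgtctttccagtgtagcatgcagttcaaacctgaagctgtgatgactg
Cd3d: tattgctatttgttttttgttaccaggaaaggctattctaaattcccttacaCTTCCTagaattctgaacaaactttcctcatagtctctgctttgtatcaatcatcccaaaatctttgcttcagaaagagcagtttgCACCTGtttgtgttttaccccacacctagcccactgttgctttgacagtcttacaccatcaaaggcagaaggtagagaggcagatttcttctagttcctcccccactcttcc
Cd3g: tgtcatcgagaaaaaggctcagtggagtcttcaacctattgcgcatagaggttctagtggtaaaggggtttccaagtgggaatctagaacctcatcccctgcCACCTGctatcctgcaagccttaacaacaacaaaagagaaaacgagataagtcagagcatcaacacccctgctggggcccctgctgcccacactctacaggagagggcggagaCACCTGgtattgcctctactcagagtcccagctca
Cd3e: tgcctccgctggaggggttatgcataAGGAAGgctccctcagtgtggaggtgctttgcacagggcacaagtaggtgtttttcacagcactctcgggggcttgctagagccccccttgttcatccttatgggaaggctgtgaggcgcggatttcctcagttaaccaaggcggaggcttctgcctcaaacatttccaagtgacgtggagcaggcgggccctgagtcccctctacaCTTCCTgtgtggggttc
No motif of the 4 was found in these letters of Jchain. Cd3d held the ETS motif and the E-box, Cd3g the E-box at 2 places and Cd3e the ETS motif at 2 places. Over all 32851 promoters of this length, 1.6% held the octamer, 29.5% the ETS motif, 14.0% the RUNX motif and 17.2% the E-box. Of the 24 members with a promoter in the table, 0 held the octamer, 12 the ETS motif, 4 the RUNX motif (Gzma, Gzmb, Nkg7 and Prf1, all of them cytotoxic genes) and 12 the E-box. These matches are letters in a window and were not tested as binding sites.

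Levels are given as log2 of the background-corrected signal minus the 75th percentile of the same array, so that a difference of 1 is a factor of 2 and a negative level lies below that percentile. The arrays differed widely in brightness, with 75th percentiles from 35.1 to 1209.1 intensity units, and 11 of them (4 LFC, 2 HFC, 4 HF20, 1 HF75) were more than 600 units bright. Between 6 and 32 of the 34 members were well above background on an array (median 24). Defining genes of brown fat were high on every array except the HF75 array of Week 3, where Ucp1, the uncoupling protein of brown fat, stood at -3.08 against a lowest level of 3.38 elsewhere, Cidea at -1.78 against 5.58 and Cox8b at -2.01 against 4.04. The summed level of 10 brown adipocyte genes was 3.16 on that array and 6.81 on the next lowest (LFC, Week 18). The class medians and the named members of HF75 against HFC are given with and without it, and other values that use HF75 include it unless stated. It also enters the SE and p-values of the other comparisons of weeks 3 to 18, whose 30 arrays share 1 estimate of spread. At 8 of the 10 time points all arrays were scanned on 1 day, so that time and scan day cannot be told apart. At Week 9 the LFC array was scanned on another day than the HFC and Kal-1 arrays. At Week 6 the HF20 and HF75 arrays were scanned on another day than those of LFC, HFC and HF5. Group and scan day cannot be told apart there.

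Only 4 members were well above background on all 38 arrays (Cd6, Thy1, Igj and Ltb), and 16 were so on 30 or more, 16 on 6 to 29 and 2 on fewer than 6. These last were Blk, a Src family kinase of B cells, on 4 arrays and Pax5, the factor that fixes B cell identity, on 1, and neither was tested. The remaining 32 members were tested among 21624 genes. In all, 7 members were not well above background on any array of at least 1 group, and their levels there are bounds.

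Among the T cell members, Thy1 encodes a surface protein that T cells share with neurons and fibroblasts. Its level ran from -0.28 through a median of 0.93 to 1.52 in LFC and from -0.26 through 0.63 to 2.50 in HFC. In HF5 it ran from 0.20 through 0.999 to 3.13, in HF20 from -0.29 through 1.67 to 2.44 and in HF75 from 0.89 through 1.18 to 3.40, the last being the Week 3 array without brown fat genes (next highest 1.497). All 5 groups overlapped, and the median correlation of Thy1 with the other members was 0.29, the lowest of the T cell genes beside that of Cd4 (0.30).

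Cd6 and Cd5 are paired surface receptors that temper the signal of the T cell receptor. Cd6 ran from -2.72 through -1.42 to -0.06 in LFC and from -2.48 through -0.14 to 0.90 in HFC. In the Kal-1 groups its medians were -1.13 (HF5), -0.53 (HF20) and -0.50 (HF75), with the extremes at -2.33 (HF20, Week 15) and 1.55 (HF75, Week 9). The HFC median was above the LFC median, while the ranges overlapped. Cd5 ran from -3.76 through -2.40 to -1.36 in LFC and from -3.25 through -1.33 to 0.26 in HFC, and its Kal-1 medians were -2.65 (HF5), -1.53 (HF20) and -1.47 (HF75). Both genes were lowest at Week 0 in LFC and at Week 3 in HFC.

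The zeta chain Cd247 ran from -3.96 through -1.60 to -0.30 in LFC and from -3.43 through -1.89 to -0.22 in HFC, and the groups overlapped nearly throughout. Its other 2 probes, dimmer, had r = 0.27 and 0.68 with the one used. Cd3d, the delta chain, ran from -4.63 through -2.60 to -1.92 in LFC and from -3.58 through -2.08 to -0.50 in HFC. Lck, the kinase bound to the co-receptors, ran from -4.33 through -2.54 to -1.12 in LFC and from -4.73 through -1.53 to -0.17 in HFC. The highest HFC levels of Cd247, Cd3d and Lck were at Day 14. The Kal-1 medians of Cd3d were -2.53 (HF5), -1.69 (HF20) and -1.82 (HF75), and those of Lck -2.39, -2.50 and -2.02, with every dose group inside the span of LFC and HFC or overlapping it.

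Of the co-receptors, Cd4 of helper T cells was well above background on 12 arrays, none of them HF5 or HF75, and Cd8a of cytotoxic T cells on 20, none of them HF5. Cd4 ran from -6.40 through -5.26 to -3.93 in LFC and from -6.04 through -4.76 to -2.85 in HFC, both near the limit of detection. Cd8a ran from -5.55 through -4.16 to -3.31 in LFC, from -6.27 through -2.96 to -1.55 in HFC and from -5.14 through -3.35 to -1.71 in HF20. The other 2 Cd8a probes were not well above background in HF5 either. No fold can be given for Cd8a or Cd4 between HFC and HF5, since the HF5 bound (-3.49) was above the HFC mean of weeks 3 to 18 (-3.76 and -4.69).

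Among the B cell members, Igj encodes the chain that joins antibody molecules into polymers in plasma cells, and it was the member with the widest span in LFC. It ran from -4.46 (Week 0) through -0.69 to 2.48 (Week 12) in LFC and from -2.79 (Week 0) through -0.995 to 1.63 (Week 15) in HFC. The Kal-1 groups ran from -3.21 through -0.21 to 1.18 (HF5), from -1.11 through 0.87 to 1.86 (HF20) and from -1.05 through 0.08 to 1.995 (HF75). A second Igj probe followed the first with r = 0.98 over the 38 arrays. Second probes of other members had r = 0.84 (Nkg7), 0.63 (Cr2), 0.62 (Thy1) and 0.485 (Cd6) with the one used. Those of Cr2 and Cd6 were well above background on only 4 and 8 arrays. Igh-6, the heavy chain of IgM, was well above background on 17 arrays only (7 LFC, 4 HFC, 1 HF5, 4 HF20, 1 HF75) and ran from -6.61 through -4.20 to -2.04 in LFC and from -6.55 through -4.28 to -2.43 in HFC. Its Kal-1 medians were -4.49 (HF5), -4.17 (HF20) and -4.61 (HF75).

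Cd79b, a signalling chain of the B cell receptor, ran from -3.65 through -1.71 to -1.28 in LFC and from -2.34 through -1.32 to -0.52 in HFC. Ms4a1 (CD20) ran from -6.08 through -3.53 to -1.20 in LFC and from -4.15 through -2.12 to -0.82 in HFC. The ranges overlapped for both genes. Cr2, a complement receptor of B cells and follicular dendritic cells, ran from -5.79 through -4.81 to -0.78 in LFC and from -6.62 through -3.59 to 2.15 in HFC, with the highest level of both groups at Week 18. The HFC array of Week 18 stood alone, as the next highest HFC level was -1.98. HF20 had the lowest median of Cr2 and the lowest maximum, running from -6.71 through -5.28 to -3.93, with 2 arrays well above background.

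Among the cytotoxic members, Nkg7, a granule membrane protein, ran from -3.19 through -1.46 to -0.21 in LFC, from -2.09 through -0.38 to 1.27 in HFC and from -3.84 through -2.46 to -0.10 in HF5. Gzmb, a granule protease that triggers death of target cells, ran from -5.87 through -2.75 to -0.83 in LFC, from -4.17 through -1.27 to 1.45 in HFC and from -3.89 through -3.24 to -1.28 in HF5. In HF20 both were highest at Week 6, at 1.90 for Nkg7 and 1.29 for Gzmb, and all groups overlapped. Ltb, lymphotoxin beta, which T and B cells use to organise lymphoid tissue, ran from -1.50 through -0.85 to 0.54 in LFC and from -1.67 through -0.44 to 1.51 in HFC, and its 3 Kal-1 medians lay between -0.50 and -0.20.

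To compare arrays over whole classes, each tested member was set to a mean of 0 over the 38 arrays and the members of a class were averaged. On this scale the T cell class ran from -1.94 (Week 0) through -0.34 to 0.39 (Day 10) in LFC and from -1.51 (Week 3) through 0.50 to 1.70 (Week 9) in HFC. The B cell class ran from -2.80 through -0.31 to 0.66 in LFC and from -1.49 through 0.23 to 1.75 in HFC. The cytotoxic class ran from -2.57 through -0.66 to 1.65 in LFC and from -1.33 through 0.80 to 2.83 in HFC. From Week 9 to Week 18 every HFC array was above the LFC array of its time point in all 3 classes.

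**Figure D1:**
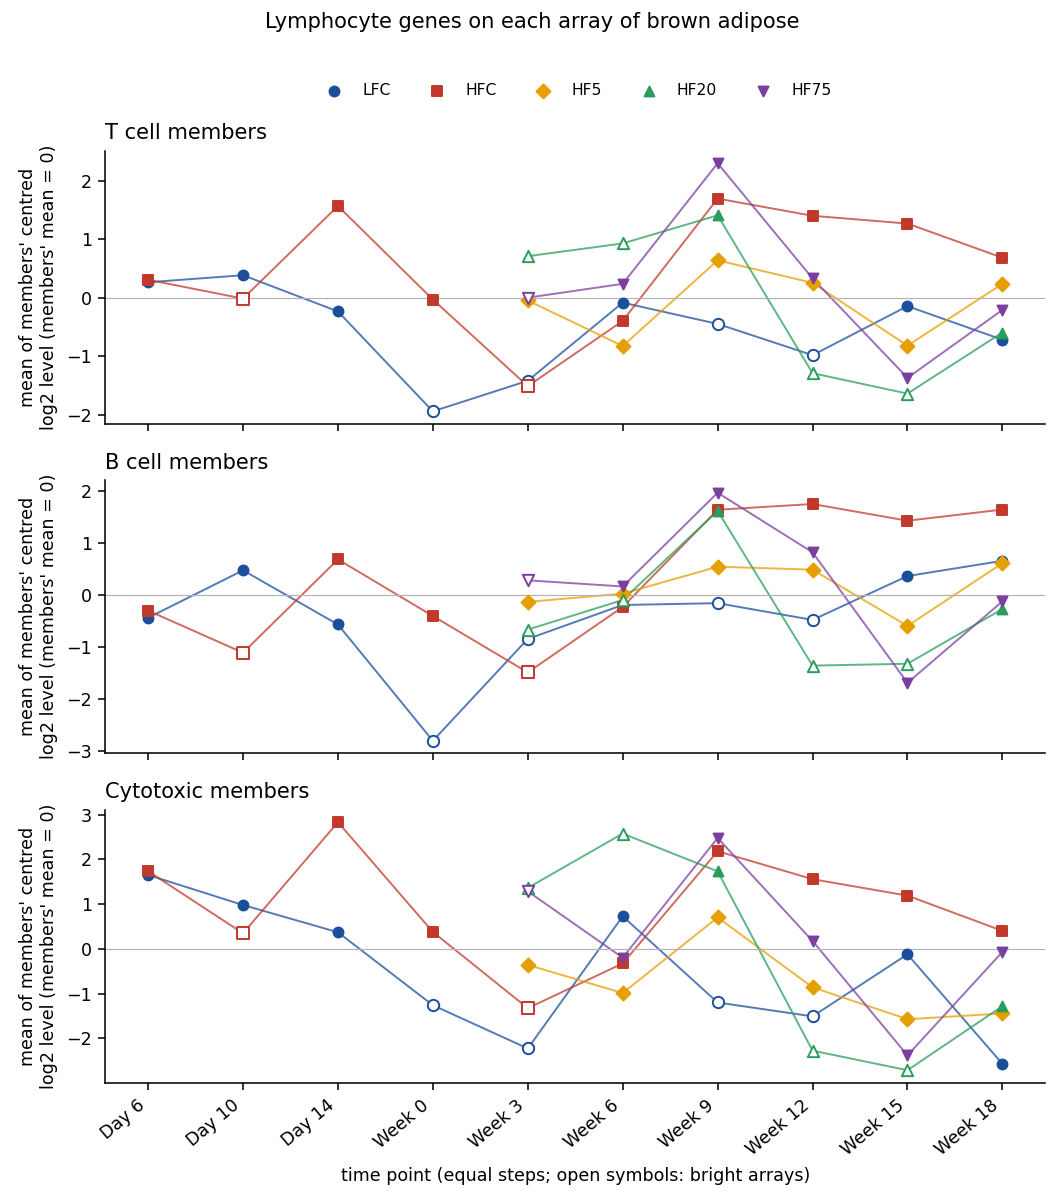
Mean of the tested members of each class (T cell 19, B cell 8, cytotoxic 4) on each of the 38 arrays, each member centred on its own mean, in log2 units against time point, 1 point for each array. Open symbols mark the 11 bright arrays. HFC stands above LFC from Week 9 on in all 3 panels, and the highest T and B cell values are those of HF75 at Week 9 (2.30 and 1.97), the dimmest array.

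The first question was whether the high fat diet changed the lymphocyte genes. Over the 10 time points the difference HFC minus LFC was above 0 for 31 of the 32 tested members, where 54.8% of all genes had a difference above 0. Its median was 1.12 on the log2 scale over the 19 T cell members, 0.69 over the 8 B cell members and 1.39 over the 4 cytotoxic members, against 0.05 over all genes. However, 0 members passed the adjusted threshold in limma with time point as a block, as did 0% of all genes, and 20 members had an unadjusted p under 0.05, all of them higher in HFC, against 6.82% of all genes in either direction. The smallest adjusted p of a member was 0.651.

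All 19 T cell members were higher in HFC, 13 of them at an unadjusted p under 0.05. Cd3g, the gamma chain of the CD3 complex, had the smallest p, with a difference of 1.23 (SE 0.36, limma adjusted p = 0.651), higher in HFC at 8 of 10 time points. Cd28, the receptor for costimulation, differed by 1.89 (SE 0.57), higher at 8 of 10, but was well above background on 1 LFC and 4 HFC arrays only. The widest differences of all T cell members were those of Lef1, a factor of naive T cells (1.98, SE 0.75) and Cd28, and the narrowest those of Thy1 (0.08) and Cd247 (0.09). Of the co-receptors Cd8a differed by 0.93 (SE 0.31), higher at 9 of 10 time points, and Cd4 by 0.45. Among well detected T cell genes Cd6 differed by 1.12 (SE 0.36) and Cd5 by 1.14 (SE 0.37), whereas Cd247, on as many arrays as Cd5, had the 0.09 given. Cd6 was higher at 6 and lower at 4 of the 10 time points.

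The 4 cytotoxic members were all higher in HFC with an unadjusted p under 0.05. Gzmb differed by 1.77 (SE 0.53, limma adjusted p = 0.651) and was higher at 8 of 10 time points, from -0.92 at Week 6 to 4.45 at Week 9. Prf1, the pore-forming protein, differed by 1.64 (SE 0.58), Nkg7 by 1.14 (SE 0.38; higher at 9 of 10) and Gzma by 1.096 (SE 0.45). In the B cell class 3 of 8 members were at an unadjusted p under 0.05, namely Fcer2a (the low-affinity IgE receptor; 1.99, SE 0.82), Ms4a1 (1.18, SE 0.49) and Cd22 (an inhibitory receptor; 1.17, SE 0.41). Fcer2a was well above background on 1 LFC and 7 HFC arrays. Both Fcer2a and Cd28 reached the 6 arrays needed for testing only with their HFC arrays. The other B cell members had Cr2 at 0.80, Cd79b at 0.57, Cd79a at 0.48 and the antibody genes Igh-6 at 0.09 (SE 0.30) and Igj at -0.20 (SE 0.50), the only member lower in HFC. Cd79a, well above background on 7 arrays (2 of them HFC), likewise reached the 6 arrays needed only with its HFC arrays.

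**Figure D2:**
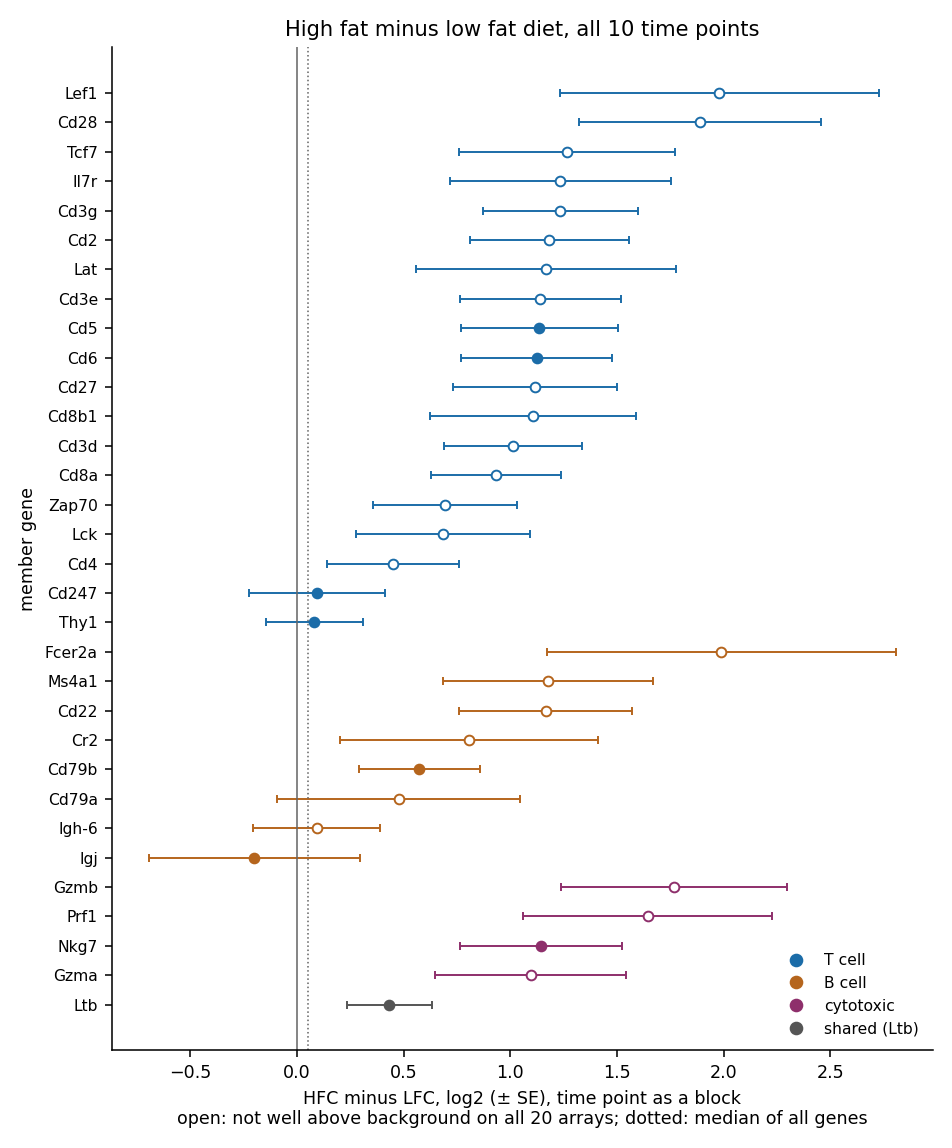
Difference HFC minus LFC of each of the 32 tested members over 10 time points, as log2 units with the standard error of the limma fit, by class and size. Open symbols mark members not well above background on all 20 arrays, and all but Igj lie to the right of 0 while none passes the adjusted threshold.

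At the level of classes the difference at a time point was 1.03 ± 1.09 for T cells (SD over 10 time points; higher in HFC at 7), 0.76 ± 1.28 for B cells (higher at 7) and 1.41 ± 1.58 for cytotoxic cells (higher at 8). It was widest at Week 12 for T cells (2.38), at Week 0 for B cells (2.40) and at Week 9 for cytotoxic cells (3.38). These 3 time points paired a bright LFC array with a dim HFC array. At Week 9 the LFC array was also scanned on another day. Day 10, the only time point to pair a bright HFC array with a dim LFC array, had the lowest T cell (-0.40) and B cell (-1.58) differences. The lowest cytotoxic difference was at Week 6 (-1.05), where both arrays were dim. The HFC array of Week 12 had the largest share of spots well above background of all 38 (78.8%). The class means went down with the brightness of the array (r with log2 of the 75th percentile -0.53 for T cells, -0.70 for B cells and -0.23 for cytotoxic cells over 38 arrays), and with bright or dim as a covariate the medians of the members were 0.88, 0.32 and 1.11. In the 6 time points whose arrays were of 1 brightness class they were 0.79, 0.40 and 1.14, and under normexp background correction 0.17, 0.10 and 0.39. The medians stayed above 0 under each of these settings.

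Genes of the same cells outside the 34 pointed the same way. Of other T cell genes (among them Icos and Foxp3) 24 of 24 tested were higher in HFC, with a median of 0.83, of other B cell genes (among them Pou2af1) 17 of 19 with 0.79, and of other cytotoxic genes (Klrd1, Ifng, Ccl5) 14 of 14 with 1.1. Macrophage genes had a median of 0.02 (6 of 10 higher), lymph node stroma genes 0.32 (4 of 7), neutrophil genes 0.65 (6 of 6) and erythroid genes 0.87 (5 of 5). Summed erythroid levels ran from 6.84 to 9.85 in LFC and from 7.34 to 11.50 in HFC. The part of blood or of other cells in the lymphocyte differences was not tested.

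Restricted to weeks 3 to 18, which all 5 groups share, the medians were 1.16 (T cell), 1.13 (B cell) and 1.74 (cytotoxic), against 0.06 over all genes. Again 0 members passed in limma (0.00925% of all genes did), with 10 members at an unadjusted p under 0.05 against 13.9% of all genes. The 3 smallest p belonged to Lef1 (2.52, SE 0.85), Prf1 (2.44, SE 0.83) and Cd28 (2.21, SE 0.77), each with a limma adjusted p of 0.351. Fcer2a was not well above background on any LFC array of these weeks but was so on 4 HFC arrays. Its HFC mean was 3.06-fold above the LFC bound. That mean includes HFC arrays not well above background, so the fold is approximate. Cd28 was well above background on 1 HFC and 0 LFC arrays of these weeks, so its fitted difference compares mostly background. For such bounds the dim group was set, array by array, at the lowest signal well above background or its own level, whichever was higher.

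Whether Kal-1 altered the lymphocyte genes was asked of each dose against HFC at the same 6 time points. The fit of all 30 arrays that gave the diet difference of these weeks was used. The 3 comparisons share the HFC arrays, so they are given side by side and not as 3 independent results. HF5 was below HFC for 29 of 32 members (48.6% of all genes), HF20 for 26 (58%) and HF75 for 25 (52.2%). None of the members passed the adjusted threshold in limma at any dose (0% of all genes for HF5, 0% for HF20 and 0% for HF75). At an unadjusted p under 0.05 there were 1 member for HF5 (5.52% of all genes), 6 for HF20 (32.7%) and 0 for HF75 (9.25%). At each dose the share of members was below that of all genes.

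At 5 µg the cytotoxic genes were the class with the lowest median, -1.50, against -0.71 for T cells, -0.60 for B cells and 0.02 for all genes. The smallest p were those of Nkg7, Cd8a and Prf1, each with a limma adjusted p of 0.815. Nkg7 had a difference of -1.53 (SE 0.66) and was lower than in HFC at 5 of 6 time points. Cd8a and Prf1 were well above background on no HF5 array, so their HF5 levels are bounds. Prf1, on 5 of the 6 HFC arrays of these weeks, had an HFC mean 1.43-fold above the HF5 bound. That mean likewise includes an HFC array not well above background. No fold is given for Cd8a. Other genes of the same classes had medians of -0.50 (other T cell), -0.26 (other B cell) and -0.79 (other cytotoxic). Under normexp the medians of the members were -0.17 (T cell), -0.10 (B cell) and -0.45 (cytotoxic). Dendritic cell genes were lower for 3 of 3 (median -0.98) and skeletal muscle genes higher for 5 of 5 (0.93), and their part was not tested. At Week 3 the direction was the opposite, the HF5 array standing above the HFC array by 1.46 (T cell class), 1.36 (B cell) and 0.97 (cytotoxic), and that HFC array was 1 of the bright ones.

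At 20 µg the B cell genes had the lowest median (-1.24), and the T cell and cytotoxic medians were -0.51 and -0.52, against -0.19 for all genes. Cr2 differed by -2.90 (SE 0.86, limma adjusted p = 0.121), Cd3e by -2.18 (SE 0.68, 0.121) and Cd79a, the other signalling chain of the B cell receptor, by -1.48 (SE 0.65, 0.131). Cr2 and Cd3e were lower at 5 of 6 time points, most at Week 18. On the HF20 array of Week 18 neither was well above background, and only 2 HF20 arrays had Cr2 so, which leaves the size of these differences uncertain. Cd79a was well above background on 1 HFC array of these weeks and 1 HF20 array, so its fitted difference compares mostly background. On the HFC array of Week 18 Cr2 (2.15) and Cd3e (0.78) had their highest levels of the series. Without it the differences were -2.28 and -1.74 (adjusted p = 0.171 for both), and without the HFC array of Week 3 they were -3.39 and -2.59 (adjusted p = 0.0320 and 0.0336). Of the 6 HF20 arrays 4 were bright. With brightness as a covariate the medians were 0.00 (T cell), -0.43 (B cell) and 0.21 (cytotoxic), and Cr2 was at -1.66 (adjusted p = 0.974). Under quantile normalization they were 0.07, -0.35 and -0.04, and under normexp 0.01, -0.06 and 0.14. In the 3 time points of 1 brightness class they were 0.33, -0.19 and 0.26. The T cell and cytotoxic medians were thus below 0 in the main fit and above 0 under normexp and in 1 brightness class. With the covariate the cytotoxic median was above 0 and the T cell median was 0.0036. With 1 time point left out the cytotoxic median ran from -1.24 to 0.26. Genes of other cells were lower in HF20 as well, with medians of -1.57 for erythroid genes (5 of 5 lower), -0.94 for neutrophil genes (6 of 6) and -1.03 for lymph node stroma (6 of 7), against 0.54 for macrophage genes (2 of 10 lower). Summed erythroid levels ran from 6.99 to 11.59 in HF20, and the part of these cells in the differences was not tested.

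At 75 µg the medians were -0.17 (T cell), -0.56 (B cell) and -0.32 (cytotoxic), against -0.03 for all genes. Without the HF75 array of Week 3 they were -0.24, -0.66 and -0.52, and Cr2 was then at -1.45. With that array included, brown adipocyte genes were lower than in HFC for 9 of 10 (median -1.32) and neutrophil genes higher for 6 of 6 (0.996), and their part in the differences was not tested. Under quantile normalization the T cell median was 0.04. The 3 smallest p belonged to Cr2 (-1.76, SE 0.86, limma adjusted p = 0.538), Cd3e (-1.29, SE 0.68, 0.556) and Cd3g (-1.23, SE 0.78, 0.589). Without the Week 3 array Cd3e was at -1.11 and Cd3g at -1.53. The HF75 array of Week 9, the dimmest of all 38 (75th percentile 35.1), had the highest T cell class mean, 2.30. That of Week 15 had a class mean of -1.37, when Cd3g stood at -6.85 and Gzma at -6.18.

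**Figure D3:**
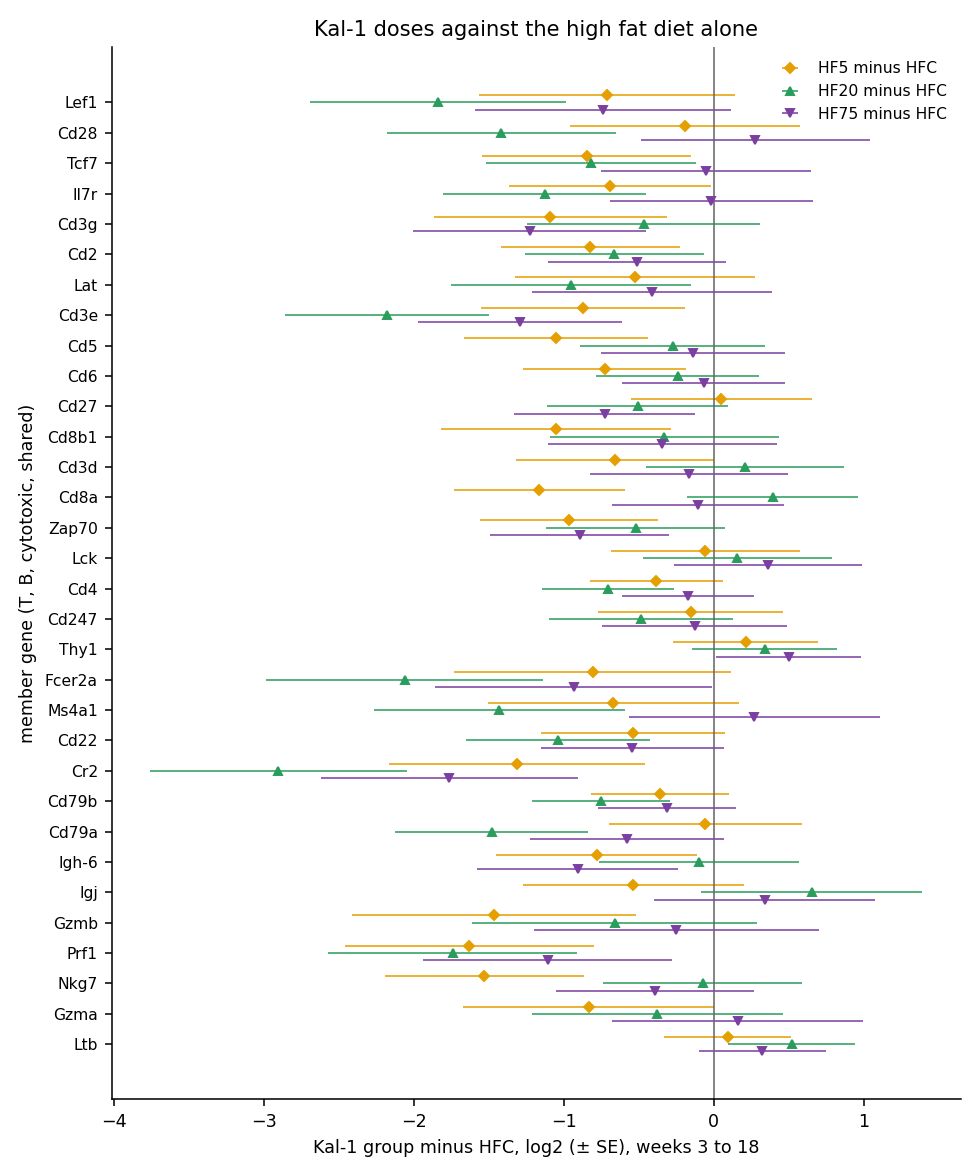
Difference from HFC of each tested member in HF5, HF20 and HF75 over weeks 3 to 18, in log2 units with the standard error of the limma fit, by class in the same order as for the diet. Most points lie left of 0 and the error bars of the 3 doses mostly overlap. The farthest points are Cr2 (-2.90) and Cd3e (-2.18) in HF20.

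A difference between doses needs its own test. In a moderated F test over the 3 dose groups 0 members passed in limma, against 13.8% of all genes, and 1 member had an unadjusted p under 0.05, against 37.3%. That member was Cd8a (adjusted p = 0.110), well above background on 5 HF20 arrays, 1 HF75 array and 0 HF5 arrays, so that no size is given. Nkg7 followed, higher than in HF5 by 1.14 in HF75 and by 1.46 in HF20 (adjusted p = 0.197), then Cd28 (adjusted p = 0.204), also on 0 HF5 arrays. Without the HF75 array of Week 3 the count that passed was 0 as well. Of the other T cell genes 2 passed this test, and of the other B cell genes 3.

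The next question was change with age and time on diet, as a slope over the 20 LFC and HFC arrays with a term for diet. Igj rose by 3.14 per 100 days (SE 0.63, limma adjusted p = 0.0304) and Igh-6 by 2.22 (SE 0.49, adjusted p = 0.0390), so 2 of 32 members passed, against 1.42% of all genes. At an unadjusted p under 0.05 there were 8 members (6 of them upward), against 21%. The B cell genes had a median slope of 1.23, with 8 of 8 above 0, the T cell genes 0.17 and the cytotoxic genes -0.68, against 0.05 for all genes. In HFC alone these medians were 2.09, 0.62 and -0.09 and in LFC alone 0.30, -0.22 and -1.55, and under normexp 0.05, -0.01 and -0.32 with both diets. Cr2 (2.80, SE 0.78, adjusted p = 0.0656), Cd3e (1.59, SE 0.47, adjusted p = 0.0714) and Gzma, which went the other way (-1.89, SE 0.63, adjusted p = 0.101), did not pass, and without Week 18 the slope of Cr2 was 1.32.

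In LFC, Igj ran from -4.46 through -3.07 to -1.55 over the 4 arrays up to Week 0 and from -0.96 through 1.15 to 2.48 over the 6 arrays of weeks 3 to 18, with no overlap. In HFC it ran from -2.79 through -2.58 to 0.40 and then from -1.67 through -0.31 to 1.63, where the Day 14 array (0.40) overlapped the later ones. Igh-6 ran from -6.61 through -5.50 to -3.77 and then from -5.999 through -3.25 to -2.04 in LFC, and from -5.91 through -5.17 to -4.13 and then from -6.55 through -3.28 to -2.43 in HFC, so that early and late arrays overlapped in both groups. The fit has no term for a time point, and arrays of 1 time point shared age and, mostly, scan day. With LFC and HFC averaged at each time point, the adjusted p were 0.121 (Igj) and 0.138 (Igh-6) and no gene of the array passed, and with time point as a random block (correlation 0.208) they were 0.0947 and 0.107. Both calls are lost in these fits.

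**Figure D4:**
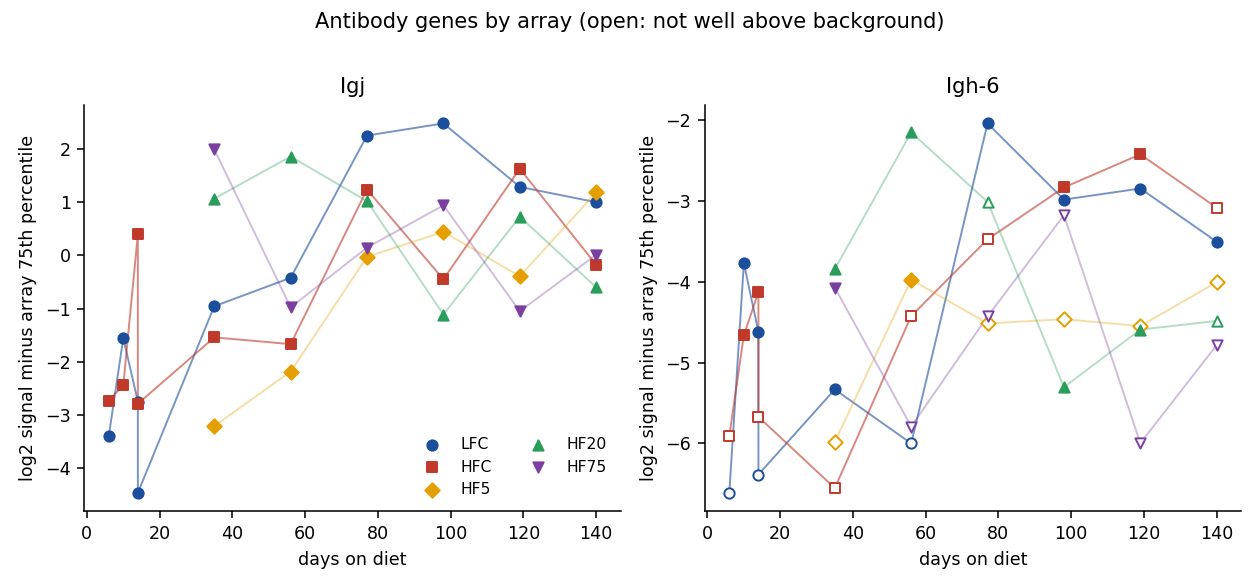
Levels of Igj and Igh-6 on each array against days on diet (Week 0 counted as day 14, as Day 14 is), in log2 units relative to the array's 75th percentile, by group. Open symbols are levels not well above background. In LFC, Igj reaches at most -1.55 up to Week 0 and is at least -0.96 on every later array.

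In the 18 Kal-1 arrays of weeks 3 to 18 the slope of Igj was 0.21 (SE 0.85) and that of Igh-6 -0.34 (SE 0.64). The difference from the slope of LFC and HFC in the same weeks was -1.84 (SE 1.30) for Igj and -3.17 (SE 1.06, limma adjusted p = 0.341) for Igh-6. In the Kal-1 arrays 0 members passed in limma (0% of all genes), with 13 members at an unadjusted p under 0.05, all downward, against 9.93% of all genes. All 4 cytotoxic genes were among them, and the class medians were -2.56 (cytotoxic), -0.97 (T cell) and -0.23 (B cell) per 100 days, against 0.21 for all genes. Smallest p were those of Cd79b (-2.37, SE 0.62), Gzma (-3.34, SE 0.96) and Cd247 (-2.11, SE 0.62), each with an adjusted p of 0.481. Without the HF75 array of Week 3 the medians were -2.82, -1.23 and -0.46, and under normexp -0.90, -0.34 and -0.10. With 1 time point left out the B cell median ran from -1.36 to 0.18. At Week 18 only 6 (HF5), 9 (HF20) and 10 (HF75) members were well above background. The slopes of neutrophil and erythroid genes were upward in the same arrays, with medians of 3.07 and 1.90, and those of macrophage genes had a median of -0.56.

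As the difference of slopes, Kal-1 groups minus LFC and HFC, all 32 members were below 0, with a median of -2.67 against -0.01 for all genes. Here too 0 members passed in limma (0% of all genes), and 14 were at an unadjusted p under 0.05, against 14.2%. Cd247 (-3.51, SE 0.90) and Cd3g (-4.00, SE 1.21) had the smallest p, with Igh-6, and an adjusted p of 0.341 each. The T cell, B cell and cytotoxic medians were -2.73, -2.80 and -3.29 without the HF75 array of Week 3. They were -4.14, -3.55 and -5.96 without Week 18, -2.11, -2.97 and -1.999 without Week 3, and -0.43, -0.49 and -0.78 under normexp. Brown adipocyte genes went the other way, above 0 for 10 of 10 (median 3.06), while dendritic cell genes (3 of 3, median -1.79) and plasma cell genes (5 of 5, -1.52) were below 0, and their part was not tested. The Kal-1 comparisons over weeks were made after the levels had been seen, and Week 3 paired bright arrays of LFC, HFC, HF20 and HF75. Their fits had no term for a time point, and none with groups averaged or time point as a random block was run for them.

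Whether the diet difference itself changed with time was tested as the product of diet and day. None of the members passed (0% of all genes) and 3 were at an unadjusted p under 0.05 in limma, against 15.1% of all genes: Cr2 (3.06 per 100 days, SE 0.98, adjusted p = 0.163), Prf1 (2.84, SE 0.98, 0.193) and Cd3e (1.69, SE 0.66, 0.251). The median over the members was 1.03 and 28 of 32 lay above 0, against a median of -0.01 and 49.5% above 0 over all genes. Genes of lymph node stroma (7 of 7), dendritic cells (3 of 3), plasma cells (5 of 5) and erythroid cells (5 of 5) lay above 0 too. Macrophage genes did so for 3 of 10, and the part of these cells was not tested. Under normexp the class medians were 0.10 (T cell), -0.02 (B cell) and 0.14 (cytotoxic), and with brightness as a covariate 0.75, 0.29 and 0.83.

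How the members moved together over the 38 arrays was described by Pearson correlation, with no test, since all points share arrays and the members share the brightness of each. Within the cytotoxic class the median r was 0.82 (0.72 to 0.89), within T cells 0.57 (-0.07 to 0.95) and within B cells 0.33 (0.06 to 0.76). Between classes it was 0.63 for T and cytotoxic, 0.44 for T and B and 0.38 for B and cytotoxic genes. The class means of T cells and cytotoxic cells had r = 0.87 (Spearman's rho 0.88), those of T and B cells 0.84 (0.76) and those of B and cytotoxic cells 0.56 (0.52). Within the 27 dim arrays these were 0.85, 0.84 and 0.53, and within the 11 bright arrays 0.91, 0.70 and 0.50.

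The closest pair was Cd5 and Cd6 (r = 0.95), which are neighbours in the genome. Cd3d and Cd3g, head to head on chromosome 9 had r = 0.83, whereas Cd3e of the same cluster had r = 0.39 with Cd3d and 0.47 with Cd3g. Cd3e went instead with Cr2 (r = 0.83, rho 0.77) and with Cd8b1 (0.75). Igj and Igh-6 had r = 0.76 with each other and a median of 0.25 with the other 30 members (-0.06 to 0.51), and Igj with Gzma had -0.02. Of all genes outside the list, those most like the mean of this pair were Ighv1-77 (r = 0.89) and Igh (0.87), both immunoglobulin heavy chain features.

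**Figure D5:**
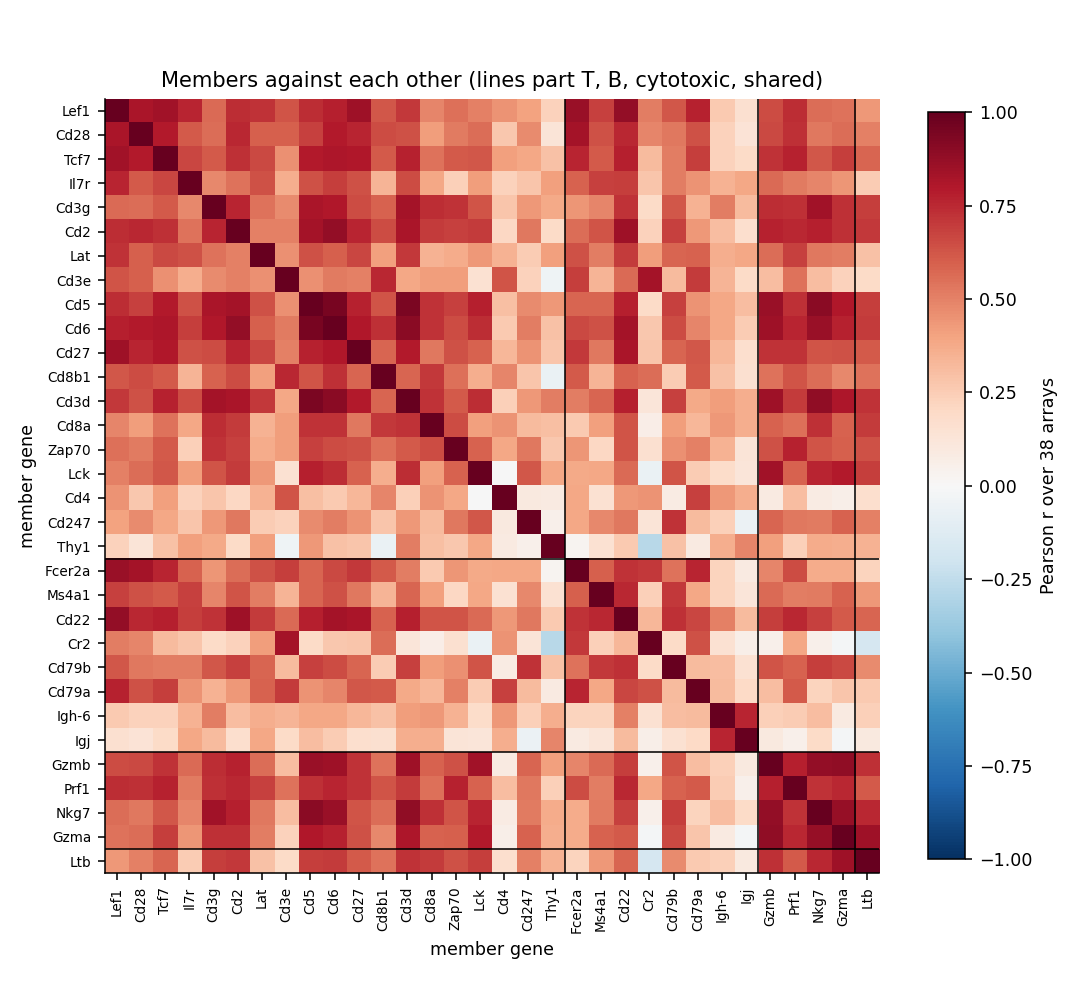
Pearson r over 38 arrays between each pair of the 32 tested members, by class, with lines between T cell, B cell and cytotoxic genes and Ltb. A red block spans most T cell and cytotoxic genes, while Igj, Igh-6, Cr2, Cd4 and Thy1 stand out as paler rows.

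Outside the list, the genes most like the T cell mean included Gfi1 (r = 0.94), A430107D22Rik (0.92), Fasl (0.92), Icos (0.91), Cd69 (0.90), ENSMUST00000103291 (0.89), Skap1 (0.88) and Galnt6 (0.88) over the 38 arrays. Those most like the B cell mean included Btnl2 (0.90), Pou2af1 (0.87), Gm3007 (0.87), Atp8b4 (0.87), Icos (0.87), Clec2i (0.86), Olfr520 (0.84), Tnfrsf13c (0.84) and Dok3 (0.83). Of those named, Fasl, Icos, Skap1, Pou2af1 and Tnfrsf13c were also on the lists of T, B or cytotoxic genes drawn up besides the 34. Gfi1, Btnl2, Gm3007, Atp8b4 and Tnfrsf13c were well above background on only 13 or 14 arrays. The cytotoxic mean, looked at after the other values had been seen, was followed closely by Ccl5 (0.94), a chemokine of activated lymphocytes, Il2rb (0.89), Itgb7 (0.89) and Klrd1 (0.89).

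A lymph node in the dissected tissue would bring lymphocytes and the stroma of the node together, so genes of that stroma were set beside the members. The stroma mean (7 tested genes) had r = 0.62 with the B cell mean (rho 0.62), 0.50 with the T cell mean (0.47) and 0.29 with the cytotoxic mean (0.26), while the macrophage mean had -0.03, 0.22 and 0.35. Within the 11 bright arrays, however, the macrophage mean had r = 0.66, 0.80 and 0.78 with the B cell, T cell and cytotoxic means and the stroma 0.63, 0.42 and 0.32, and within the 27 dim arrays the macrophage mean had -0.01, 0.25 and 0.30 and the stroma 0.50, 0.39 and 0.15. Dendritic cell genes (3 tested) went closely with the B cell and T cell means, at r = 0.81 (rho 0.79) and 0.79 (0.80), and had 0.59 (0.62) with the cytotoxic mean. Glycam1, an adhesion ligand of lymph node vessels, was well above background on 4 arrays, with its highest level of -0.98 in HFC at Week 12 and the next at -3.74. The same array had the highest Fut7 (-0.56) and Nkx2-3 (-0.41), and class means of 1.40 (T cell), 1.75 (B cell) and 1.56 (cytotoxic). It also had the largest share of spots well above background of all 38 arrays (78.8%). The thymus gene Prss16 and the macrophage genes Itgam and Msr1 were highest on it too, while the other genes of these lists were highest elsewhere. The part of this in its levels was not tested. The HFC array of Week 18 had the highest Madcam1 (0.37), an adhesion molecule of mucosal vessels, and Chst4 (0.86), together with the highest Cr2 and Cd3e. The thymus genes Foxn1 (1.31), Dntt (-1.585) and Aire (-3.76) were highest on this array too, as was the summed level of 9 thymus genes (1.83). Madcam1 had r = 0.76 with Cd3e (rho 0.60) and 0.66 with Cr2 (0.50). HF75 at Week 9, with the highest T and B cell means, had a stroma mean of 0.41 against a highest of 1.77.

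Summed over 8 genes, the stroma level ran from 0.48 to 2.18 in LFC, from -1.23 to 2.41 in HFC, from 0.09 to 1.81 in HF5, from -0.09 to 2.21 in HF20 and from 0.87 to 3.60 in HF75, the last on the Week 3 array without brown fat genes, which had the highest Ccl19 (2.57) and Ccl21c (2.36). Thymus genes were mostly near background, with Rag1 and Rag2 well above it on 1 array each, Ptcra on 3, Foxn1 on 5 and Aire on 7. Dntt was well above it on 25 arrays, however, and Ccl25 on all 38. Of the genes listed for other cells, 3 passed the slope over days, namely Cxcl13, a chemokine that draws B cells (2.96 per 100 days, SE 0.56, limma adjusted p = 0.0279), Cst7 of cytotoxic cells (3.55, SE 0.72, 0.0309) and 2010001M09Rik of plasma cells (1.87, SE 0.46, 0.0491). These calls come from the fit without a term for time point, and with the diets averaged no gene of the array passed. Igj had r = 0.60 with Cxcl13 and 0.59 with 2010001M09Rik. The part of lymph node in the differences between groups was not tested.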

How the data were processed

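Brown adipose RNA was measured on 38 one-colour Agilent mouse arrays. The authors deposited the scanner output of each array, whose processed signal is an intensity that the scanner software had already corrected for background. The labels name Agilent Feature Extraction 9.1 and the file headers 10.5.1.1. A further deposited table holds the authors' own log2 changes from LFC within a time point, and it was not used.

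Each signal was set to log2 relative to its array's 75th percentile. Control spots and outlier flags (0.147% of probe values) were left out, and spots of 1 probe were averaged. Where several probes carried 1 gene name, that of highest mean level stood for the gene. The tests took in the 21624 genes that reached well above background on 6 or more arrays. The tests used limma 3.58.1 in R 4.3.3 (two-sided, Benjamini-Hochberg over all genes tested, threshold 0.05), and Python 3.11.15 did the rest. Time point was a block, since each group had 1 array at each, except in the slopes over days, which were fitted per 100 days. The fits were tested on simulated data with known changes. There the slope over days made false calls where arrays of a time point shared an effect. Fits with the diets averaged or time point as a random block were therefore added for the slope of LFC and HFC.

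The members and the other gene lists were chosen with earlier results of these data known. Levels are given for the best detected members of each class, for Cd4, Cd8a and Ltb and for members past the threshold, and for each comparison the 3 members with the smallest p are named. The number of arrays and, for dim members, the background limit the precision. Alternatives covered background correction, normalization, filters, array weights, slides, brightness and each time point or array left out. Of the genes most like the class means, a few are not reported here.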

Additional observations from a re-analysis of the deposited data

Results flagged for a closer look

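In 80 groups of 6 or 10 arrays (16 members in each of 5 groups), 5 had 1 array far from the rest of its group by Dixon's ratio, and chance alone marks about 1 in 20. Thy1 stood at 3.399 in HF75 at Week 3, on the array without brown fat genes, with the next highest HF75 level at 1.497. Lck was lowest in HF5 at Week 18, at -3.965, with the next lowest at -2.483. Cd79b was lowest in LFC at Week 0, at -3.65, against -2.203. Cr2 in HFC reached 2.152 at Week 18, against a next highest of -1.984. Without this array the difference of Cr2 between HF20 and HFC was -2.28 in place of -2.90. Igh-6 was lowest in HF5 at Week 3, at -5.982, against -4.549, where it was not well above background.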

How the results depend on the processing

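All members below 0.05 in adjusted p are counted here, from limma fits. With HFC against LFC the count was 0 under each alternative run. The comparison of HF20 with HFC gave 2 members (Cd3e, Cr2) with array weights, 0 to 3 with 1 time point left out, and 0 to 5 with 1 array left out, an alternative chosen after seeing the data. Without the HFC array of Week 3 these were Cd3e, Cd28, Lef1, Cr2 and Prf1. Without the HF20 array of Week 9 they were 3, namely Cd3e, Cd79a and Cr2. Over all genes, the count for HF20 against HFC ran from 0 to 3324 with 1 time point left out. It ran from 0 to 4218 with 1 array left out and from 0 to 6127 under the other alternatives. Cd79a in HF20 turned from -1.48 to 0.21 in time points of 1 brightness class. The F test among doses gave 1 member (Cd8a) under quantile normalization, 1 under normexp and 1 with slide as a random block. It gave 2 with array weights (Cd8a, Igj), and 0 to 1 with a time point left out. Over all genes, the count for the F test ran from 0 to 5428 with a time point left out and from 0 to 8693 under the other alternatives.

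The slope over days passed for 2 members. It passed for 1 (Igj) under normexp, with the percentile over probes well above background on all arrays, with no filter, with the strictest filter, with Day 14 and Week 0 joined and with the order of time points. With brightness as a covariate there were 5 (Cd3e, Cr2, Igj, Igh-6 and Gzma), and with 1 time point left out 0 to 3, the 0 being without Week 0, Week 15 or Week 18. In fits added after seeing the data it was 0 in weeks 3 to 18, 0 in LFC alone, 0 with the diets averaged and 0 with time point as a random block. In HFC alone it was 3 (Cd3e, Cr2 and Igh-6, adjusted p = 0.0376), with Igj at 0.102. Over all genes, the count for the slope over days ran from 7 to 596 with 1 time point left out. It ran from 0 to 1698 under the other alternatives. Without the time point block, that is with arrays not paired by time, the adjusted p of Cr2 in HF20 was 0.187 and the count of members stayed at 0 for each comparison. Dim signals limit most members, and the cause of these shifts was not tested.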
